A study of Drosophila melanogaster with 18 samples.

Results

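The comparison described here sets PCF11_NIG_KD testes directly against PCF11_KD testes of Drosophila melanogaster, which received RNAi against the same gene, PCF11, from a pair of separate lines. By the group names in the labels, it holds 4 of the 18 libraries of the series, 2 per line. PCF11_NIG_KD males carried bamGal4 with the RNAi line that the labels call NIG, PCF11_KD males carried bamGal4 with the other PCF11 line, named VDRC in the authors' deposited tables only, and control males carried bamGal4 alone. All 3 groups therefore share the driver, which is active in late spermatogonia and early spermatocytes, so the knockdown was aimed at part of the cells in a testis. The labels do not give the RNAi construct, its target stretch in PCF11, the age of the males or the number of insertions. About 150 pairs of testes were pooled for a library. Crosses stood for 3 days at 25 °C, and the offspring were then raised at 29 °C. The question the comparison answers is how far a second line against the same factor gives the same use of poly(A) sites and the same transcript levels.

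PCF11 is a subunit of cleavage factor II, which acts with the cleavage and polyadenylation machinery at the end of a gene: the transcript is cut, a poly(A) tail is added, and RNA polymerase is released from the template. Many genes carry more than 1 poly(A) site. Cutting at the proximal site, nearer to the promoter, gives a shorter 3′ UTR, and cutting at the distal site gives a longer one with more room for regulatory sequence. In the testis germ line, cells that leave proliferation and become spermatocytes switch many genes to proximal sites.

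The measurement was 3′-end sequencing, in which reads pile up at the 3′ ends of polyadenylated transcripts, counted by the authors at a list of known sites. The table holds 529 gene entries, of which 505 have 2 sites and 24 have 3. Some genes appear as separate entries for different isoforms, and entry names such as cnn-PI are kept where a gene has more than 1. For each entry the proximal share is the percent of the counts at its 2 most used sites that fell on the proximal one. PCF11_NIG_KD libraries held 819286 and 688285 counts, PCF11_KD libraries 536930 and 473323, and control libraries 371119 and 342763. The deeper libraries were thus those of PCF11_NIG_KD. Sample-sheet numbers in the column names recur between groups of the series, so it used more than 1 sample sheet, and the numbers do not show whether the libraries of both lines shared one. PCF11 is not among the measured genes (0 of 23 listed cleavage and polyadenylation factors are), so the depth of the knockdown in each line is not known from these data. The labels do not say that duplicates came from separate crosses, so the spread between duplicates may be technical. Each SD below measures that spread within a group. Each edgeR SE and p value rests on the spread between duplicates over all 18 libraries of the series.

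Proximal sites were used more in PCF11_NIG_KD than in PCF11_KD. The median entry had 68.8% and 68.3% of its counts at the proximal site in the PCF11_NIG_KD libraries, 61.8% and 63.8% in the PCF11_KD libraries, and 76.1% and 78.6% in the control libraries. The 3 groups did not overlap, and PCF11_NIG_KD lay between the others. The group means were 68.5% ± 0.365 in PCF11_NIG_KD and 62.8% ± 1.36 in PCF11_KD (SD, n = 2 each), a difference of 5.73 points. An exact two-sided permutation test of the 4 libraries gave p = 0.333, which is the smallest p that 2 against 2 allows. When all counts were summed over entries, the proximal share was 74.1% and 74.4% in PCF11_NIG_KD, 68.6% and 69.2% in PCF11_KD and 81.1% and 82.7% in control.

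Entry by entry, 119 of 525 tested entries (22.7%) differed in site usage between the lines at an adjusted p under 0.05 in edgeR, of which 101 (19.2%) were more proximal and 18 (3.43%) more distal in PCF11_NIG_KD. The test compares the odds of proximal against distal counts, so that the level of the gene cancels. Over all 525 entries the median difference in share, PCF11_NIG_KD minus PCF11_KD, was 3.15 points, with quartiles of -1.25 and 8.58 points, and 357 differences were above 0. The median was 14.1 points over the 101 entries and -24.6 points over the 18. Between the duplicates of a line the median entry differed by 2.30 points in PCF11_NIG_KD and by 2.64 points in PCF11_KD, and the line means differed by a median of 5.31 points. The 4 libraries fell into non-overlapping pairs in 365 entries (69.5%), far more than passed the test. In 26 entries (4.95%) the lines lay on opposite sides of both control libraries. Leaving out PCF11_NIG_KD replicate 1, PCF11_NIG_KD replicate 2 or PCF11_KD replicate 2 brought the number that passed down to 73, 75 and 76.

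**Figure D1:**
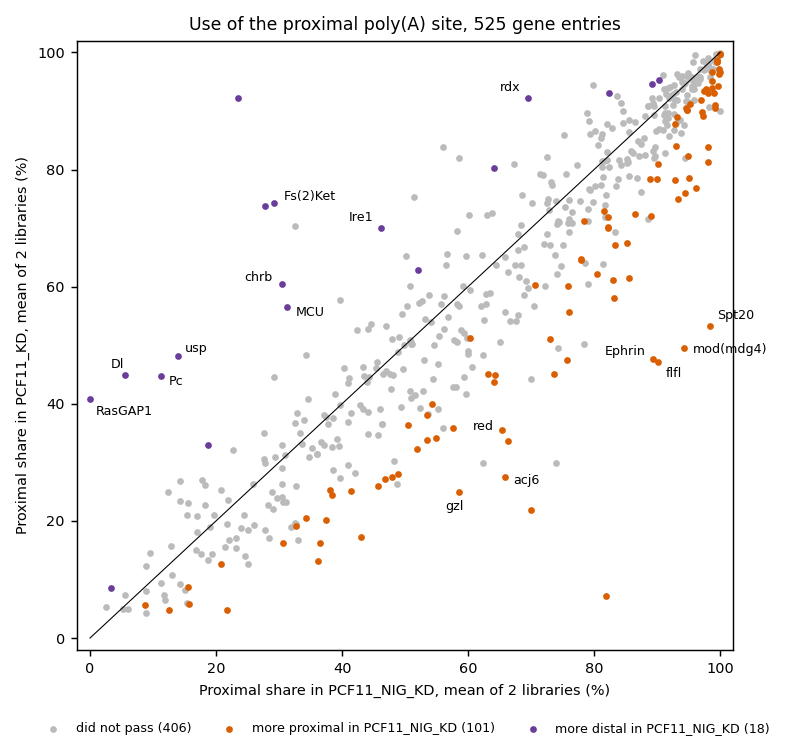
Proximal share of 525 tested entries as the mean of 2 libraries, with PCF11_NIG_KD on the x axis and PCF11_KD on the y axis (both in %). Of the coloured points, the 101 entries that were more proximal in PCF11_NIG_KD lie right of the diagonal and the 18 that were more distal lie left of it, and 406 entries in grey did not pass.

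The greatest differences toward the proximal site in PCF11_NIG_KD included genes of transcription and chromatin. Spt20, a subunit of the SAGA co-activator complex, had 100% and 96.7% proximal counts in PCF11_NIG_KD, 53.3% and 53.1% in PCF11_KD, and 62.1% and 62.9% in control. Its distal site, 401 nt downstream of the proximal one (13509979 and 13510380 on chromosome arm 3L, BDGP6, both in the 3′ UTR), was left with 2 of 124 counts in PCF11_NIG_KD (adjusted p = 0.00194). Both Spt20 sites were in use in PCF11_KD and in control, with the lower proximal share in PCF11_KD. PCF11_NIG_KD had nearly given up the distal site. acj6, a POU-domain transcription factor gene, had 64.7% and 66.9% in PCF11_NIG_KD, 25.6% and 29.5% in PCF11_KD and 73.3% and 81.5% in control. The acj6 sites lie 1490 nt apart in the 3′ UTR (15352663 and 15351173 on X), and the log2 odds differed by 2.34 ± 0.28 (adjusted p = 6.66e-05). Here PCF11_KD stood apart, and PCF11_NIG_KD lay between it and control.

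The mod(mdg4)-PAA entry, of a BTB-domain factor gene whose products include an insulator protein, was at 95% and 93.5% in PCF11_NIG_KD, 56.9% and 42.3% in PCF11_KD and 96.6% and 90.5% in control (adjusted p = 0.00383). Its sites at 21370918 and 21370424 on 3R also lie inside annotated pre-mod(mdg4) genes on the same strand, so the counts cannot be given to a single transcript. sbb, which encodes a zinc finger nuclear protein, had 58.9% and 73.7% in PCF11_NIG_KD, 32.6% and 34.8% in PCF11_KD and 15.2% and 15.2% in control, so both lines were above control and PCF11_NIG_KD farther (log2 odds 1.97 ± 0.57, adjusted p = 0.0231). The call of sbb was lost without PCF11_NIG_KD replicate 2 (adjusted p = 0.214), PCF11_KD replicate 1 (0.109) or PCF11_KD replicate 2 (0.0844).

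Signalling genes formed another part of the same end. Ephrin, the ligand of the Eph receptor, had 89.8% and 88.9% proximal counts in PCF11_NIG_KD, 47.8% and 47.6% in PCF11_KD, and 34.2% and 46.1% in control. Its sites lie 154 nt apart in the 3′ UTR (577396 and 577550 on chromosome 4), the log2 odds differed by 3.18 ± 0.34, and the adjusted p was 2.96e-05. flfl, a regulatory subunit of protein phosphatase 4, was at 86.7% and 93.5% in PCF11_NIG_KD, 45.8% and 48.3% in PCF11_KD and 46.6% and 44.3% in control (13693362 and 13693609 on 3R, log2 odds 3.30 ± 0.68, adjusted p = 0.00358). For both genes the PCF11_NIG_KD libraries lay far above those of both other groups. hppy, a kinase gene of the MAP4K family, was at 39.9% and 32.4% in PCF11_NIG_KD, 9.95% and 16.5% in PCF11_KD and 43.2% and 33.8% in control (adjusted p = 0.00459). Its call was lost without PCF11_NIG_KD replicate 1 (adjusted p = 0.0517) or PCF11_KD replicate 1 (0.0597).

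gzl, of the goliath family of membrane-bound ubiquitin ligases, had 55.2% and 61.8% in PCF11_NIG_KD, 23.0% and 26.9% in PCF11_KD and 17.2% and 20.8% in control (log2 odds 2.09 ± 0.50, adjusted p = 0.00758). app, which encodes a palmitoyltransferase, had 84.0% and 82.3%, against 58.5% and 57.6% in PCF11_KD and 84.4% and 86.0% in control (adjusted p = 0.0103). In app PCF11_NIG_KD was at the level of control, and in gzl it was PCF11_KD that came near it. Dph1, a gene of the diphthamide modification of translation elongation factor 2, had 71.3% and 80.2% in PCF11_NIG_KD, 43.0% and 52.1% in PCF11_KD and 84.9% and 89.8% in control (adjusted p = 0.0230). Single libraries mattered for all 3. gzl was lost without PCF11_NIG_KD replicate 2 (adjusted p = 0.0717) or PCF11_KD replicate 1 (0.0614), and app without any of the 4 PCF11 libraries left out in turn (0.05003 to 0.0711). Dph1 was lost without PCF11_NIG_KD replicate 2 (0.180), PCF11_KD replicate 1 (0.161) or PCF11_KD replicate 2 (0.0551).

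red, a gene known for its mutant pigmentation, had 62.7% and 68.3% in PCF11_NIG_KD, 33.5% and 37.5% in PCF11_KD and 90.04% and 91.7% in control (14301723 and 14302276 on 3R, log2 odds 1.79 ± 0.24, adjusted p = 1.34e-04). CG7841 had 71.8% and 75.4%, against 44.3% and 46.0% in PCF11_KD and 95.3% and 96.6% in control (adjusted p = 0.00215). CG5098, with CG5756 on the opposite strand at a site, had 39.7% and 46.4%, against 17.5% and 16.9% in PCF11_KD and 71.8% and 75% in control (adjusted p = 0.00187). In these 3 genes both lines were below control, PCF11_KD by more. CG43954, whose sites lie in Lasp, had 84.1% and 87.0% in PCF11_NIG_KD, 65.7% and 57.5% in PCF11_KD and 82.4% and 83.2% in control (adjusted p = 0.00662). It lost its call without PCF11_NIG_KD replicate 2 (adjusted p = 0.0612) or PCF11_KD replicate 2 (0.0695). Of the 141 tested entries with a CG symbol only, 32 were more proximal in PCF11_NIG_KD and 0 more distal by edgeR, with a median difference of 3.85 points, beside 19.2% more proximal, 3.43% more distal and 3.15 points over all entries. The share of more proximal entries among them was thus near that of all entries.

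Fewer genes went the other way, with some of the greatest single differences. Fs(2)Ket, the importin beta gene, had 32.6% and 26% proximal counts in PCF11_NIG_KD, 75.4% and 73.1% in PCF11_KD, and 68.2% and 67.4% in control (log2 odds -2.80 ± 0.28, adjusted p = 1.23e-05). Its sites are 11957 nt apart, at 20738989 in an intron and at 20750946 beyond the annotated end on 2L, and Amacr lies on the opposite strand at a site. PCF11_NIG_KD was below control and PCF11_KD above it in every library. In the authors' deposited tables, which set each line against the same controls, its PolyAIndex score was 1.21 for PCF11_NIG_KD and -0.130 for PCF11_KD. The entry named Dl, which lies at the gene of the Notch ligand Delta, had 9.72% and 1.37% in PCF11_NIG_KD, 38.3% and 51.6% in PCF11_KD, and 78.7% and 78.4% in control (19304752 and 19304328 on 3R, log2 odds -3.74 ± 0.58, adjusted p = 4.98e-04). For Dl, PolyAIndex in the authors' deposited tables was 3.82 for PCF11_NIG_KD and 0.806 for PCF11_KD.

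RasGAP1, which encodes a GTPase-activating protein for Ras, had 0 proximal counts of 67 in PCF11_NIG_KD, which allows a share of up to 4.48%, against 43.5% and 38.2% in PCF11_KD and 33.3% and 45.5% in control (adjusted p = 0.00112). MCU, the mitochondrial calcium uniporter gene, had 32.9% and 29.6% in PCF11_NIG_KD, 55.9% and 57.1% in PCF11_KD and 86.3% and 83.6% in control (log2 odds -1.51 ± 0.29, adjusted p = 0.00197). chrb, a REDD1 homolog that restrains TOR signalling, had 32.6% and 28.3%, against 59.3% and 61.5% in PCF11_KD and 52.9% and 59.8% in control (sites 2865 nt apart at 11495523 and 11498388 on 3L, adjusted p = 2.78e-04). RasGAP1 and chrb were thus near control in PCF11_KD, while for MCU both lines were below control and PCF11_NIG_KD farther. usp, the RXR-type partner of the ecdysone receptor, had 17% and 10.9% in PCF11_NIG_KD, 50.0% and 46.4% in PCF11_KD and 30.4% and 30.4% in control (adjusted p = 8.14e-04), with Actn on the same strand at a site. rdx, an adaptor of Cul3 ubiquitin ligases, had 68.4% and 70.6%, against 91.1% and 93.2% in PCF11_KD and 89.1% and 88.2% in control (adjusted p = 0.00117). For usp and rdx the control libraries lay between the lines.

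Of the other genes at this end, Pc, the Polycomb gene, had 9.76% and 12.8% in PCF11_NIG_KD, 48.8% and 40.7% in PCF11_KD and 22.2% and 40.0% in control (adjusted p = 0.0113). Ire1, a sensor of endoplasmic reticulum stress, had 43.1% and 49.1%, against 68.5% and 71.6% in PCF11_KD and 53.1% and 57.3% in control (adjusted p = 0.00552). Both had control libraries between the lines, and both have another annotated element on the opposite strand at a site. Chc, the clathrin heavy chain gene, had 60.2% and 68.1% in PCF11_NIG_KD, 81.5% and 78.9% in PCF11_KD and 82.6% and 88.6% in control (adjusted p = 0.00519). pim, which encodes securin, had 17.1% and 20.5%, against 31.5% and 34.4% in PCF11_KD and 62.0% and 62.4% in control (adjusted p = 0.00649). CaBP1, a protein disulfide isomerase-like gene, had 49.7% and 54.6%, against 60.9% and 64.8% in PCF11_KD and 50.4% and 56.2% in control (adjusted p = 0.0478). These 5 calls were less firm than the others. Without PCF11_NIG_KD replicate 1 the adjusted p was 0.0827 for Pc, 0.0600 for Ire1, 0.0688 for Chc and 0.0713 for pim. Pc was also lost without PCF11_NIG_KD replicate 2 (0.0505) or PCF11_KD replicate 1 (0.0920), Chc without PCF11_KD replicate 1 (0.0501), and pim without PCF11_KD replicate 2 (0.0605). CaBP1 was lost without any of the 4 PCF11 libraries in turn (0.0760 to 0.282).

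**Figure D2:**
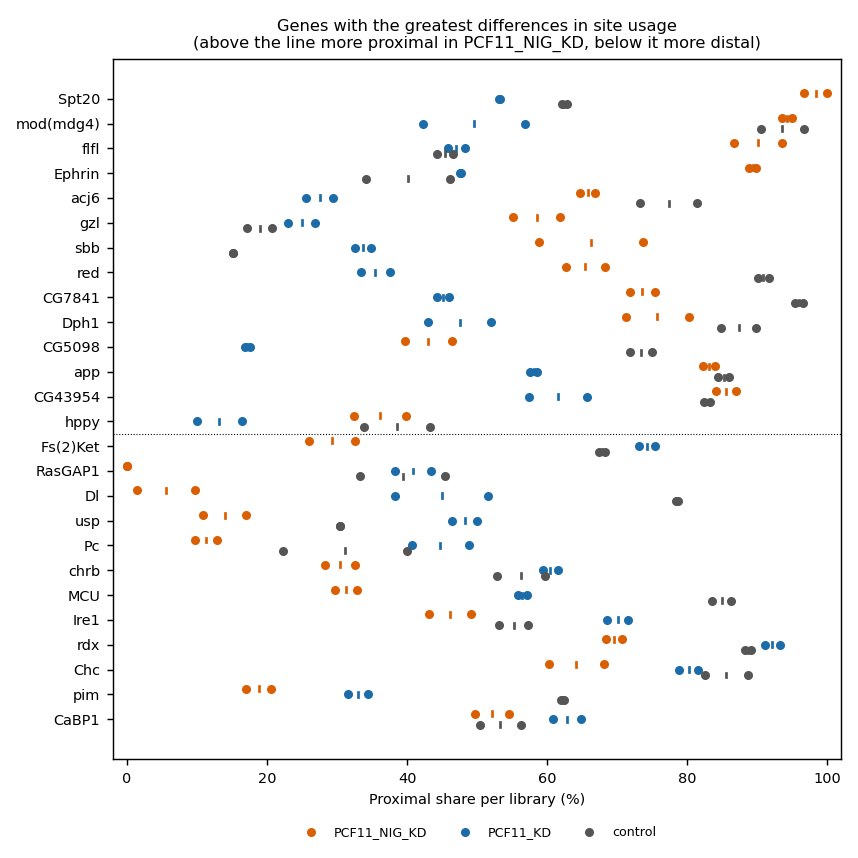
Proximal share in each library (x axis, %) of the 26 genes with the greatest differences among those that passed with a mean of at least 30 counts in both lines and no overlap, with a point per library and a bar at the mean of 2. PCF11_NIG_KD is drawn above PCF11_KD and control in each row, and control lies at the level of PCF11_NIG_KD in app, at that of PCF11_KD in flfl, and between the lines in rdx.

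The counts at each site show where the difference in share lay. These are the counts of the usage test itself, scaled to library size, so they describe it and do not support it. At 1016 sites tested singly, 92 (9.06%) were higher and 93 (9.15%) lower in PCF11_NIG_KD. Without TMM scaling the numbers were 64 higher and 118 lower. Among the 101 entries with more proximal use in PCF11_NIG_KD, the proximal site was higher in 45 and lower in 1, beside 14.5% higher and 5.22% lower among all tested proximal sites. The distal site was lower in 52 and higher in 0, beside 13.1% lower and 3.32% higher among all tested distal sites. Both sites passed, in opposite directions, in 14. Among the 18 entries with more distal use, the proximal site was lower in 12, and the distal site was higher in 4. Leaving out single libraries brought the 185 sites that passed down to 91 without PCF11_NIG_KD replicate 1, 106 without PCF11_NIG_KD replicate 2, 112 without PCF11_KD replicate 1 and 111 without PCF11_KD replicate 2.

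Ephrin is a case in which the distal site passed and the proximal site did not. Its distal site had 17.1 and 21.8 CPM in PCF11_NIG_KD, 164 and 166 in PCF11_KD, and 274 and 234 in control (log2 difference between the lines -3.08 ± 0.28, adjusted p = 2.93e-06). Its proximal site had 150.2 and 175 CPM in PCF11_NIG_KD, and 150.1 and 151 in PCF11_KD (adjusted p = 0.771). CPM here is relative to the counts on the authors' site list, scaled by TMM separately for sites and for gene totals. acj6 had the same form, with distal values of 215 and 229 CPM in PCF11_NIG_KD, 761 and 989 in PCF11_KD and 300.4 and 320.3 in control (log2 -1.98 ± 0.21, adjusted p = 1.17e-05). In red both sites changed, with 2058 and 2247 CPM at the proximal site in PCF11_NIG_KD, 821 and 1050 in PCF11_KD and 2546 and 2716 in control (log2 1.20 ± 0.16, adjusted p = 9.82e-05), and 1226 and 1044 CPM at the distal site in PCF11_NIG_KD, 1633 and 1748 in PCF11_KD and 282 and 246 in control (log2 -0.57 ± 0.18, adjusted p = 0.0396). In Fs(2)Ket it was the proximal site that fell, to 225 and 167 CPM in PCF11_NIG_KD, against 1494 and 1520 in PCF11_KD and 899 and 942 in control (log2 -2.94 ± 0.19, adjusted p = 1.34e-07). The distal site of Fs(2)Ket had 466 and 476 CPM in PCF11_NIG_KD and 487 and 560.5 in PCF11_KD (adjusted p = 0.741).

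**Figure D3:**
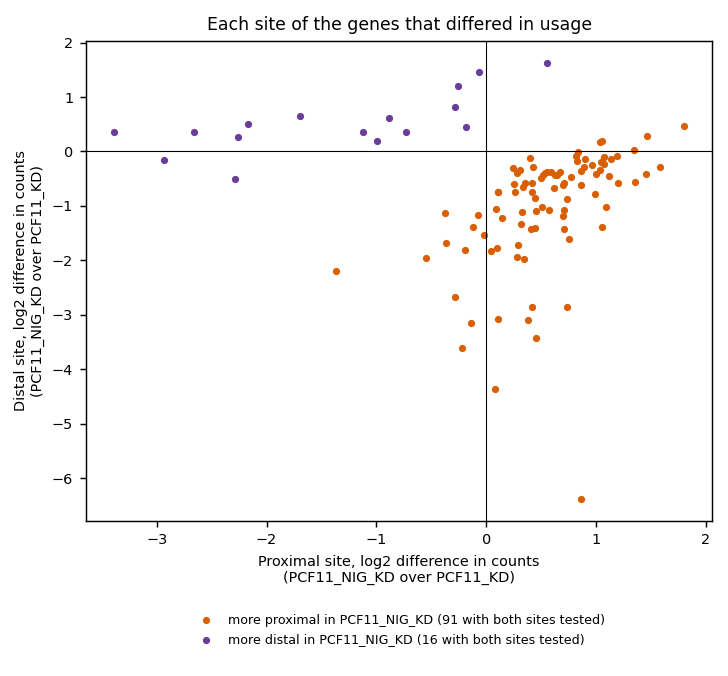
Log2 difference in counts (PCF11_NIG_KD over PCF11_KD) at the proximal site (x axis) and at the distal site (y axis) of entries that differed in usage and had both sites tested. The 91 entries with more proximal use lie low or to the right, down to -6.38 at the distal site of cnn-PI, and the 16 with more distal use lie to the left or high.

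Named gene lists, read against 19.2% more proximal, 3.43% more distal and a median of 3.15 points over all entries, differed in how many members passed. In translation regulators and RNA-binding proteins, 4 of 7 tested members were more proximal in PCF11_NIG_KD and 0 more distal by edgeR, with a median of 8.92 points. heph, a polypyrimidine tract-binding protein gene, had 94.6% and 95.4% in PCF11_NIG_KD, 77.6% and 79.3% in PCF11_KD and 57.3% and 51.9% in control (adjusted p = 0.00112). yps, a Y-box protein gene, had 93.1% and 92.5%, against 77.8% and 78.6% in PCF11_KD and 84.9% and 84.5% in control (adjusted p = 4.72e-04). In both genes PCF11_NIG_KD lay above both other groups, with control below PCF11_KD in heph and above it in yps. Imp, an IGF2 mRNA-binding protein homolog, had 92.9% and 93.0%, against 83% and 85.0% in PCF11_KD and 90.8% and 92.5% in control (adjusted p = 0.00124). orb, of the CPEB family of translation regulators, differed by 0.721 points only, with 99.5% in both PCF11_NIG_KD libraries and 98.8% and 98.7% in PCF11_KD (adjusted p = 0.0226). The call of orb was lost without any of the 4 PCF11 libraries in turn (0.0816 to 0.122). In the deadenylation and decapping list, twin, the CCR4 deadenylase gene, was at 89.99% in both PCF11_NIG_KD libraries, 77.9% and 78.9% in PCF11_KD and 95.2% and 95.6% in control (adjusted p = 0.00186), and 1 of 2 tested members passed.

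Of 17 tested entries of sequence-specific transcription factors, 6 were more proximal in PCF11_NIG_KD and 1, usp, more distal, with a median of 11.4 points. Besides acj6, mod(mdg4)-PAA and sbb, the list holds Hr3, a nuclear receptor gene with only 47 and 21 counts in the PCF11_NIG_KD libraries, at 83% and 57.1%, against 29.4% and 14.3% in PCF11_KD (adjusted p = 0.0324), lola-PD and Antp. The call of Hr3 was lost without PCF11_NIG_KD replicate 1 (adjusted p = 0.268), PCF11_KD replicate 1 (0.0750) or PCF11_KD replicate 2 (0.181), that of lola-PD without PCF11_NIG_KD replicate 1 (0.103) or PCF11_KD replicate 2 (0.0961), and that of Antp without PCF11_NIG_KD replicate 1 (0.222), PCF11_NIG_KD replicate 2 (0.152) or PCF11_KD replicate 2 (0.385). Chromatin and histone modification had 2 more proximal and 2 more distal of 19, with a median of 4.71 points. gpp, the Dot1 histone methyltransferase gene, had 49.9% and 48.0% in PCF11_NIG_KD, 28.1% and 28% in PCF11_KD and 76.7% and 73.6% in control (adjusted p = 0.00697), and lost its call without PCF11_NIG_KD replicate 1 (0.0551). E(bx)-PC, an entry of the NURF chromatin remodeller gene, had 36.8% and 10% in PCF11_NIG_KD, 84.3% and 100% in PCF11_KD and 71.0% and 69.4% in control (adjusted p = 0.0104), with 19 and 10 counts in PCF11_NIG_KD, and lost its call without PCF11_NIG_KD replicate 2 (0.0732). Kdm4A, a histone demethylase gene, had 40.0% and 42.7%, against 24.6% and 25.5% in PCF11_KD (adjusted p = 0.0165), and was lost without any of the 4 PCF11 libraries in turn (0.0600 to 0.111). In the list of TFIID, SAGA, elongation and Integrator genes, 2 of 11 were more proximal, Spt20 and TfIIB, and 0 more distal by edgeR, with a median of 4.08 points. TfIIB, a general transcription factor gene, differed by 4.08 points (adjusted p = 0.0324) and was lost without PCF11_NIG_KD replicate 1 (0.102), PCF11_NIG_KD replicate 2 (0.165) or PCF11_KD replicate 2 (0.231).

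Ubiquitin ligases and conjugation had 6 of 18 entries more proximal in PCF11_NIG_KD and 0 more distal by edgeR, with a median of 2.19 points, and deubiquitinases had 3 of 7 and 0, with a median of 12.2 points. The 6 include gzl, bon and Cul3. The call of bon was lost without PCF11_NIG_KD replicate 1, PCF11_NIG_KD replicate 2 or PCF11_KD replicate 1. Cul3 lost its call without PCF11_NIG_KD replicate 1 or PCF11_KD replicate 2. The entry named isopeptidase-T-3, counted in both lists, had 48.3% and 47.6% in PCF11_NIG_KD, 28.6% and 26.5% in PCF11_KD and 95.8% and 95.8% in control (adjusted p = 0.00187). vih, the ubiquitin-conjugating enzyme of the anaphase-promoting complex, had 52.1% and 51.6%, against 31.8% and 32.6% in PCF11_KD and 86.4% and 88.0% in control (adjusted p = 2.44e-04), with CG10654 on the opposite strand at a site. Both stood between PCF11_KD and control in every PCF11_NIG_KD library. Usp7, a deubiquitinase gene, had 20.03% and 23.4%, against 4.67% and 5.02% in PCF11_KD and 20.4% and 28% in control (12024019 and 12023543 on X, adjusted p = 1.34e-04). Duba, a deubiquitinase gene of the OTU family, had 82.6% and 82.0%, against 71.9% and 68.1% in PCF11_KD and 94.9% and 95.3% in control (adjusted p = 0.00142). Trc8, a ubiquitin ligase gene of the endoplasmic reticulum with FipoQ on the opposite strand, had 34.8% and 30.7%, against 18% and 20.3% in PCF11_KD (adjusted p = 0.00600), and was lost without PCF11_NIG_KD replicate 1 (0.0648) or PCF11_KD replicate 1 (0.0569).

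The mitochondrial list had 4 of 10 more proximal and 1, MCU, more distal, with a median of 8.69 points. Tom40, the channel of the outer membrane import complex, had 94.4% and 92.3% in PCF11_NIG_KD, 74.6% and 75.3% in PCF11_KD and 78.3% and 77.5% in control (7739177 and 7739572 on X, log2 odds 2.24 ± 0.22, adjusted p = 1.11e-05). HtrA2, a protease gene, had 74.2% and 71.8%, against 52.2% and 50.0% in PCF11_KD and 95.5% and 94.9% in control (adjusted p = 0.00152). Mitofilin, which shapes the cristae, had 35.5% and 39.3%, against 20.7% and 19.5% in PCF11_KD and 82.2% and 82.2% in control (adjusted p = 8.36e-05). PCF11_NIG_KD was thus above both other groups in Tom40 and between them in HtrA2 and Mitofilin. In the list of endoplasmic reticulum, Golgi and protein modification genes, 3 of 6 were more proximal (app, mrj and EMC1) and 0 more distal by edgeR, with a median of 9.30 points. EMC1, of the membrane protein insertion complex, had 31.0% and 30.2%, against 15.6% and 17% in PCF11_KD and 72.9% and 76.6% in control (adjusted p = 0.00183). mrj, a co-chaperone gene, had 65.8% and 62.4%, against 44.5% and 43.0% in PCF11_KD and 96.2% and 96.7% in control (adjusted p = 0.00558, and 0.0551 without PCF11_NIG_KD replicate 1).

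Ion and metal transport had 4 of 10 more proximal and 1, the sodium-calcium exchanger gene Calx, more distal, with a median of 7.71 points. Besides Trpm and Nhe3 the more proximal members were ATP7, a copper transporter gene, and nrv2, a sodium pump subunit gene. ATP7 was lost without PCF11_NIG_KD replicate 1 (adjusted p = 0.0884) and nrv2 without any of the 4 PCF11 libraries in turn (0.0641 to 0.169), so that without PCF11_NIG_KD replicate 1 Trpm alone of the 4 passed. Calx was lost without PCF11_NIG_KD replicate 1 (adjusted p = 0.151), PCF11_NIG_KD replicate 2 (0.0572) or PCF11_KD replicate 2 (0.186). Trpm, a cation channel gene, had 50.6% and 56.3% in PCF11_NIG_KD, 31.1% and 36.5% in PCF11_KD and 97.1% and 97.9% in control (adjusted p = 0.0113), and was lost without PCF11_NIG_KD replicate 2 (0.105) or PCF11_KD replicate 1 (0.106). Nhe3, a sodium-proton exchanger gene, had 95.8% and 93.9%, against 86.6% and 77.9% in PCF11_KD and 75.9% and 75.9% in control (adjusted p = 0.00534), and was lost without PCF11_NIG_KD replicate 1 (0.0600) or PCF11_KD replicate 2 (0.0534). Cell cycle and meiosis genes had 2 of 15 more proximal and 1, pim, more distal, with a median of 3.73 points. mei-S332, which protects centromeric cohesion in meiosis, had 34.2% and 34.3% in PCF11_NIG_KD, 20.1% and 21.1% in PCF11_KD and 59.3% and 61.9% in control (adjusted p = 7.09e-04). fzr, the Cdh1-type activator gene of that ubiquitin ligase which ends mitosis, had 83.4% and 83.3%, against 65.1% and 69.1% in PCF11_KD and 94.2% and 93.8% in control (adjusted p = 0.00195). The duplicates of both genes lay within 5 points of each other in each group.

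Signalling kinases, phosphatases and GTPases had 4 more proximal and 3 more distal of 25, with a median of 0.153 points, and thus differed in both directions. Besides Ephrin, flfl, Dl and chrb they include Src42A, a Src-family kinase gene, with 100% and 63.6% in PCF11_NIG_KD, 7.14% and 7.14% in PCF11_KD and 9.09% and 27.3% in control (adjusted p = 0.00481). Src42A rested on 5 and 11 counts in PCF11_NIG_KD and on 28 and 28 in PCF11_KD, which is too few for its SD to measure precision. The remaining members that passed were rut, more proximal, and Gprk2, more distal. Both lost their calls without any of the 4 PCF11 libraries in turn. With a term for replicate number in the edgeR fit the adjusted p was 0.0631 for rut and 0.0615 for Gprk2. With DESeq2 it was 0.0932 for rut. Endosome, SNARE and autophagy genes had 1 more proximal (lqf, the epsin gene) and 1 more distal (Chc) of 12, with a median of 6.87 points. The centriole, motor and cytoskeleton list had 1 more proximal, cnn-PI, and 0 more distal of 13 by edgeR, with a median of 3.36 points. Splicing genes had 1 of 4 more proximal, heph again, and nuclear transport genes had 1 of 4 more distal, Fs(2)Ket.

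**Figure D4:**
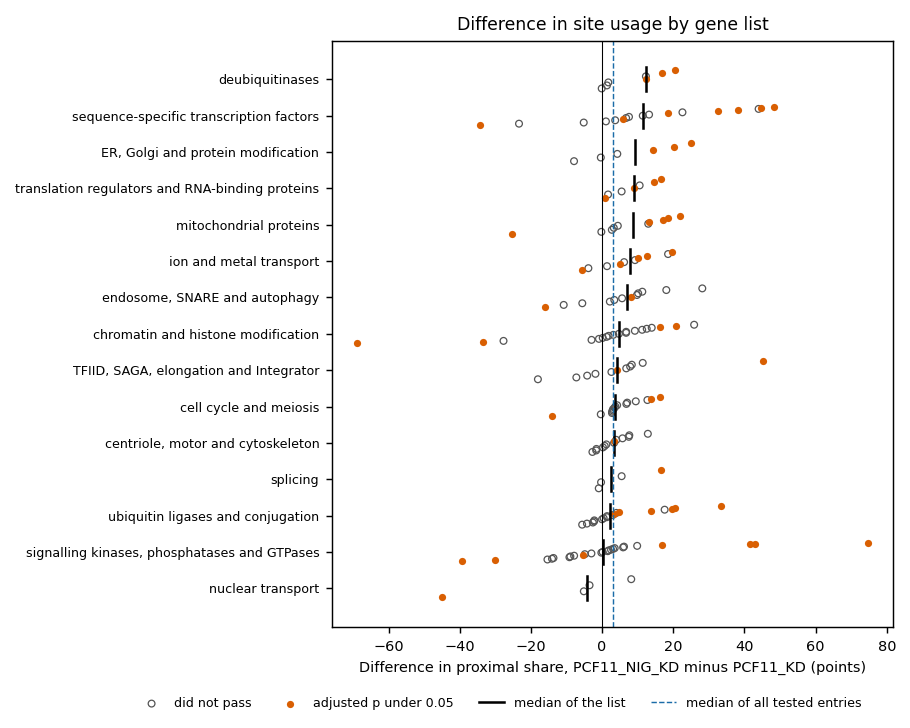
Difference in proximal share (x axis, points, PCF11_NIG_KD minus PCF11_KD) of each tested member of the gene lists with at least 4 tested members. Filled points passed at an adjusted p under 0.05, black bars are list medians, and the dashed line is the median over all entries, 3.15 points; deubiquitinases have the highest list median, 12.2 points.

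Total counts per gene, both sites and all others together, differed in fewer entries. By edgeR 64 of 525 (12.2%) passed, 15 (2.86%) higher and 49 (9.33%) lower in PCF11_NIG_KD. With another scaling, RLE size factors, the split was 22 higher and 33 lower. With only the 4 PCF11 libraries in the fit, a change in the libraries and not in the kind of scaling, it was 87 higher and 84 lower. In whole testes, fewer cells of a type and less RNA per cell cannot be told apart, and the totals are relative to the genes on the site list. Without PCF11_NIG_KD replicate 1, PCF11_NIG_KD replicate 2, PCF11_KD replicate 1 and PCF11_KD replicate 2 the number that passed was 27, 29, 33 and 24. The 4 libraries fell into non-overlapping pairs in 343 entries (65.3%). Of the 101 entries with more proximal use in PCF11_NIG_KD, 5 had a higher and 13 a lower total, of the 18 with more distal use, 1 had a higher and 6 a lower total, and of the other 406, 9 had a higher and 30 a lower total.

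Gprk2, a kinase gene for G-protein-coupled receptors, had 1316 and 1182 CPM in PCF11_NIG_KD, 565 and 479 in PCF11_KD and 4223 and 3661 in control (log2 difference between the lines 1.26 ± 0.16, adjusted p = 6.59e-05). Both lines were below control, PCF11_KD by more. CG43341 had 1076 and 1089 CPM, against 417 and 503 in PCF11_KD and 1770 and 1741 in control (log2 1.23 ± 0.18, adjusted p = 3.01e-04). Orai, the store-operated calcium channel gene, had 743 and 774 CPM, against 348 and 371 in PCF11_KD and 935 and 849 in control (log2 1.08 ± 0.18, adjusted p = 8.00e-04). bon, of the TIF1 family of transcription cofactors, had 649 and 739.8 CPM, against 331.7 and 395 in PCF11_KD and 756 and 800.1 in control (log2 0.93 ± 0.16, adjusted p = 9.88e-04). In these 4 genes the PCF11_NIG_KD libraries lay between PCF11_KD and control. The other 4 with the greatest positive differences were Slik, a Ste20-type kinase gene, CG4239, fdl, a hexosaminidase gene, and Hrb98DE, an hnRNP gene, at log2 differences of 1.17, 0.93, 0.85 and 0.84. Without PCF11_KD replicate 2 the adjusted p was 0.0527, 0.0872, 0.0862 and 0.0862 for them in that order, without PCF11_NIG_KD replicate 1 it was 0.152 for CG4239 and 0.0845 for fdl, and without PCF11_KD replicate 1 it was 0.126 for CG4239.

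The lower totals reached farther. HDAC4, a class II histone deacetylase gene, had 34.1 and 37.1 CPM in PCF11_NIG_KD, 183 and 177 in PCF11_KD and 280.0 and 235 in control (log2 -2.33 ± 0.32, adjusted p = 1.38e-04). bin3, which encodes the methyltransferase that caps 7SK RNA, had 389 and 392 CPM, against 1716 and 2128 in PCF11_KD and 983 and 1047 in control (log2 -2.30 ± 0.20, adjusted p = 7.40e-06). HDAC4 in PCF11_KD was somewhat below control, and bin3 in PCF11_KD was above it. The Cbl-PB entry, of a ubiquitin ligase gene acting on receptor tyrosine kinases, had 78.4 and 86.2 CPM, against 317 and 422 in PCF11_KD and 47.6 and 39.7 in control (log2 -2.16 ± 0.22, adjusted p = 1.79e-05). Rab5, the small GTPase gene of early endosomes, had 343 and 349 CPM, against 1398 and 1064 in PCF11_KD and 2103 and 1765 in control (log2 -1.83 ± 0.26, adjusted p = 1.78e-04). For Cbl-PB both lines were above control, and for Rab5 both were below it. gdl-ORF39, whose counts cannot be told from those of gdl on the same strand, had 751 and 553 CPM, against 2413 and 2548 in PCF11_KD and 3710 and 3985 in control (log2 -1.93 ± 0.21, adjusted p = 1.79e-05).

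Fs(2)Ket and chrb, which were also more distal, had lower totals as well. Fs(2)Ket had 890.0 and 798 CPM in PCF11_NIG_KD, 2294 and 2356 in PCF11_KD and 1515 and 1539 in control (log2 -1.46 ± 0.15, adjusted p = 1.79e-05). chrb had 810.3 and 704 CPM, against 2003 and 2075 in PCF11_KD and 2394 and 1988 in control (log2 -1.43 ± 0.15, adjusted p = 1.79e-05). In both genes the proximal site carried the fall. E(bx)-PC, at 24 and 14.9 CPM in PCF11_NIG_KD and 95 and 50.8 in PCF11_KD (log2 -1.89 ± 0.39, adjusted p = 0.00430), was lost without PCF11_NIG_KD replicate 2 (0.0782) or PCF11_KD replicate 1 (0.114).

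**Figure D5:**
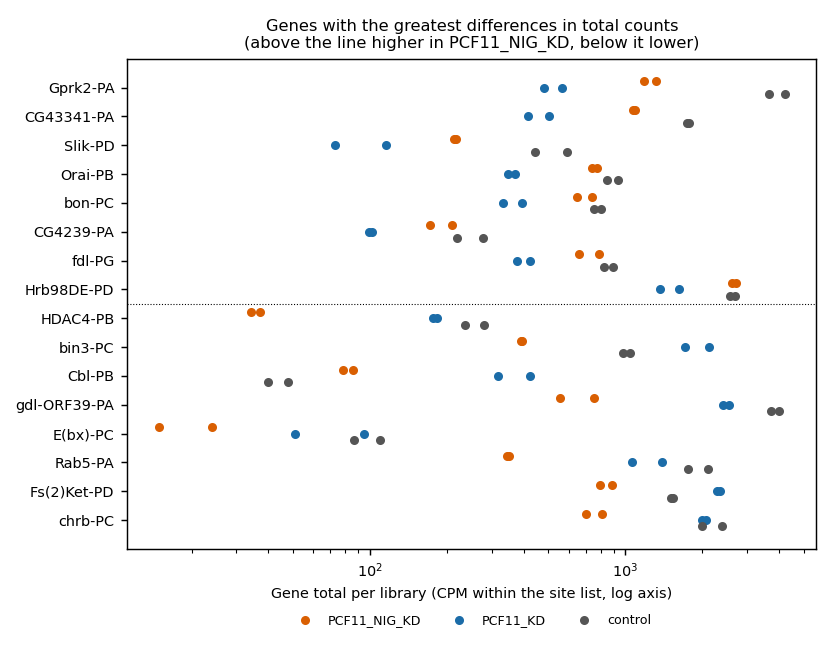
Total counts per library (CPM within the site list, log axis) of the 16 entries with the greatest differences in total, a point per library, with PCF11_NIG_KD drawn above PCF11_KD and control in each row. HDAC4 lies at 34.1 and 37.1 CPM in PCF11_NIG_KD, left of all PCF11_KD and control libraries, and Gprk2 at 1316 and 1182 CPM lies between PCF11_KD and control.

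By list, the totals of chromatin genes were lower in PCF11_NIG_KD in 5 of 19 entries and higher in 0 by edgeR, beside 9.33% lower and 2.86% higher over all entries. They were HDAC4, E(bx)-PC, lid, simj and Chd1. lid, a histone demethylase gene, had 129 and 126 CPM in PCF11_NIG_KD, 249.7 and 276 in PCF11_KD and 280.0 and 327 in control (adjusted p = 0.0331), and Chd1, a remodeller gene, differed by -0.54 ± 0.16 on the log2 scale (adjusted p = 0.0450). Transcription factors had 4 of 17 lower (Deaf1, acj6, sbb and chinmo), TFIID, SAGA, elongation and Integrator genes 3 of 11 lower (TH1, Su(Tpl) and IntS6), and signalling genes 5 of 25 lower and 2 higher. Ephrin, in the signalling list, had 161 and 187 CPM in PCF11_NIG_KD, 331.7 and 325 in PCF11_KD and 434 and 431 in control (log2 -0.92 ± 0.15, adjusted p = 8.36e-04). Usp7 had 4507 and 3770 CPM, against 8893 and 10382 in PCF11_KD and 6508 and 6165 in control (log2 -1.22 ± 0.14, adjusted p = 4.01e-05). Some calls on these lists also depended on the tool or scaling. With DESeq2 the adjusted p was 0.214 for Chd1, 0.142 for IntS6 and 0.0664 for TH1. With RLE size factors in edgeR it was 0.0869 for Chd1, 0.0509 for IntS6, 0.0570 for sbb and 0.0537 for TH1. In edgeR without TMM it was 0.0523 for sbb, 0.0631 for TH1 and 0.0501 for simj. Of the lower signalling totals, Mkp3 was lost with DESeq2 (adjusted p = 0.122) and RLE size factors (0.0544), and Nf1 with DESeq2 (0.05001). Src42A was lost with RLE size factors (0.0509) and without TMM (0.0505). Mkp3, Nf1 and Src42A were also lost without any of the 4 PCF11 libraries in turn, while Ephrin and chrb kept their calls throughout. HDAC4, E(bx)-PC, lid, Deaf1, acj6, chinmo and Su(Tpl) kept their calls under these changes. Many of the smaller calls needed all 4 PCF11 libraries. Without any of them in turn, calls were lost for lid (adjusted p = 0.105 to 0.214), Chd1 (0.124 to 0.364), Deaf1 (0.0563 to 0.230), sbb (0.105 to 0.317), TH1 (0.164 to 0.252) and IntS6 (0.114 to 0.214). acj6 was lost without PCF11_NIG_KD replicate 1 (0.0736) or PCF11_KD replicate 2 (0.0887), and Su(Tpl) without PCF11_NIG_KD replicate 1 (0.201), PCF11_NIG_KD replicate 2 (0.0626) or PCF11_KD replicate 2 (0.174).

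Markers of testis cell types were measured only in part. The lists were chosen with earlier results of these data known, and whether a member is limited to the cell type it is listed under was not tested. Of the listed markers, 1 of 8 for somatic cyst cells (zfh1), 4 of 10 for spermatogonia and early germ line (Imp, Rbp9, chinmo and ken), 3 of 18 for spermatocytes (CycB, simj and twe) and 3 of 19 for spermatids (m-cup, r-cup and nes) were on the site list, and 0 for the hub, for the muscle sheath and pigment cells, and for accessory gland and fat body. zfh1 had 126 and 123 CPM in PCF11_NIG_KD, 143 and 137 in PCF11_KD and 456 and 482 in control (adjusted p = 0.706 between the lines). The 4 genes listed for spermatogonia and early germ line summed to 4599 and 4275 CPM in PCF11_NIG_KD and to 6224 and 6714 in PCF11_KD. In control they summed to 6785 and 6715 CPM. The spermatocyte markers summed to 3741 and 4317 CPM in PCF11_NIG_KD, 4944 and 5429 in PCF11_KD and 2741 and 3319 in control, and the spermatid markers to 9130 and 9345, 9983 and 11369, and 9552 and 10520 CPM in the same order. In each of these 3 sums both PCF11_NIG_KD libraries were below both PCF11_KD libraries. A sum follows its most abundant members. The median log2 difference in total over the members was -0.303 for early germ line, -0.454 for spermatocytes and 0.153 for spermatids. Over all entries it was -0.0213. Rbp9, ken and CycB did not pass. The members did not all lie the same way. Of the spermatid markers, r-cup had 3732 and 3781 CPM in PCF11_NIG_KD and 5428 and 6293 in PCF11_KD, m-cup had 3453 and 3320 in PCF11_NIG_KD and 2823 and 3038 in PCF11_KD (adjusted p = 0.394), and nes had 1946 and 2245 in PCF11_NIG_KD and 1731 and 2038 in PCF11_KD (adjusted p = 0.565). The spermatid sum thus followed r-cup, while the means of m-cup and nes were higher in PCF11_NIG_KD without passing. Among single markers, chinmo, Imp, simj, twe and r-cup passed as lower in PCF11_NIG_KD and 0 as higher by edgeR, beside 9.33% lower and 2.86% higher over all entries, with log2 differences between -0.74 and -0.45, and all 5 lost their calls without PCF11_NIG_KD replicate 2 (adjusted p = 0.145, 0.168, 0.171, 0.197 and 0.169). All but Imp did so without PCF11_NIG_KD replicate 1 too (0.213, 0.230, 0.317 and 0.213), all 5 without PCF11_KD replicate 2 (0.215, 0.131, 0.228, 0.317 and 0.228), and simj, twe and r-cup without PCF11_KD replicate 1 (0.0673, 0.114 and 0.0515). Some marker calls also depended on the tool or scaling. The adjusted p of twe was 0.138 with DESeq2, 0.0984 with RLE size factors in edgeR and 0.0596 in edgeR without TMM. That of r-cup was 0.0529 with RLE size factors, and that of simj 0.0501 without TMM. The part of cell composition in the differences of usage and of totals was not tested.

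The differences in usage were spread over genes of different structure. Of entries with sites at most 250 nt apart, 30 of 154 were more proximal and 3 more distal in PCF11_NIG_KD. At 251 to 600 nt it was 47 and 6 of 199, and over 600 nt it was 24 and 9 of 172. Entries with another annotated gene at a site passed in 24.4% of cases and those with none in 22%. The number of calls differed with depth. In the highest tertile of entries by counts 38.4% passed, in the middle one 16.5% and in the lowest 12.8%. Calls toward the distal site ran the other way, with 2.26% in the highest tertile, 3.98% in the middle one and 4.07% in the lowest. The median difference in share was 3.75, 2.38 and 2.49 points in the same order, and the part of depth in these counts was not tested.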

How the data were processed

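Of 18 libraries of 3′-end sequencing, the 2 PCF11_NIG_KD and 2 PCF11_KD libraries are compared and the 2 control libraries are given beside them. Bowtie, SAMtools and the builds dm6 and BDGP6 are named, per the submitters' processing notes. Per the file headers and logs, the authors ran PolyA-miner on a list of 1098 sites, without strand (setting 0) and without molecular identifiers (setting 0), and deposited raw counts per site and library. That site list is named for a comparison of bam and spermatocyte samples, so the entries are not a random set of genes. The authors also deposited a PolyAIndex score per gene with its adjusted p-value for each line against control. The score is positive where the distal site gained. The other lines' tables entered only as counts for the spread.

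From the counts, the proximal share was formed from the 2 most used sites of each entry. The usage test was the quasi-likelihood one of edgeR 4.0.16 (R 4.3.3), run on proximal and distal counts of all 18 libraries, with a coefficient per library and a term per group for the proximal site. Totals and single sites were tested with TMM scaling, also over all 18 libraries. Entries or sites with a mean of at least 10 counts were tested, with Benjamini-Hochberg adjustment over all of them. SE and adjusted p in the text come from these fits. The tests were checked on simulated counts. DESeq2 1.42.0, other scalings and filters, other sets of libraries and each library left out were tried as alternatives.

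Genes were named by rule: among those that passed with at least 30 mean counts in both lines and no overlap, the 14 most positive and 12 most negative differences in share, then, among totals that passed with at least 30 mean counts in at least 1 line, the 8 highest and 8 lowest log2 differences, and up to 4 of each list. Genes discussed for other reasons, such as Src42A and Hr3, come from the lists. The comparison and the lists were chosen with earlier results of these data known. Positions of sites are the authors', in BDGP6. Site locations come from Ensembl release 115, and of 522 symbols 503 matched directly, 17 by a RefSeq synonym and 2 not at all. At a site, 120 entries had a gene on the opposite strand and 42 another gene on the same strand, and counts made without strand cannot separate these. The limit printed for a site with 0 counts is 3 counts of the total and covers counting error only. Duplicates differed by more than sampling noise, with chi-square per degree of freedom of 9.67 in PCF11_NIG_KD, 5.64 in PCF11_KD and 5.06 in control.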

Additional observations from a re-analysis of the deposited data

Results flagged for a closer look

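In 21 entries every library of one line lay on one side of both control libraries in proximal share and every library of the other line on the opposite side, and the difference between the lines passed in edgeR. In 14 of them PCF11_NIG_KD was the more proximal line, with differences of 74.7 points for Src42A, 45.1 for Spt20, 24 for CG43954, 18.4 for Tom40, 16.7 for CG43675, 14.6 for yps, 14.3 for gdl-ORF39, 9.14 for alpha-Est5, 8.92 for Imp, 8.58 for CG32161, 8.13 for lqf, 4.002 for Pex3, 3.36 for cnn-PI and 2.71 for CG3982. PCF11_NIG_KD was the more distal line for E(bx)-PC (-68.7 points), Fs(2)Ket (-45), usp (-34.2), Pc (-33.5), Ire1 (-23.9), rdx (-22.6) and Snp (-5.01). Over all 525 tested entries, 26 (4.95%) lay on opposite sides in this way, passed or not. Only the difference between the lines was tested here, and the points do not give the distance of a line from control. In the authors' deposited tables, PolyA-miner gave adjusted p = 0.213 for Spt20, 0.489 for alpha-Est5 and 0.123 for Pc in PCF11_KD against control. For CG43954 it gave 0.0565 in PCF11_NIG_KD against control. Others, such as Fs(2)Ket and yps, were under 0.05 there for both lines. Src42A and E(bx)-PC rested on few counts in PCF11_NIG_KD, as given above, so their places beside control are not precise. Several of the 21 calls needed single libraries. Those of Snp (adjusted p = 0.117 to 0.227) and gdl-ORF39 (0.0667 to 0.196) were lost without any of the 4 PCF11 libraries in turn. Without PCF11_NIG_KD replicate 2 the adjusted p was 0.190 for alpha-Est5, 0.0505 for Pex3, 0.0612 for CG43954, 0.0732 for E(bx)-PC and 0.0505 for Pc. It was 0.0827 for Pc and 0.0600 for Ire1 without PCF11_NIG_KD replicate 1, 0.124 for alpha-Est5 and 0.0920 for Pc without PCF11_KD replicate 1, and 0.0605 for alpha-Est5 and 0.0695 for CG43954 without PCF11_KD replicate 2.

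The distal site of cnn-PI, an isoform entry of the centrosomin gene, had 1.32 and 0 CPM in PCF11_NIG_KD, 54.7 and 106 in PCF11_KD and 29.5 and 43.1 in control. lqf had 97.4% and 97.2% proximal counts in PCF11_NIG_KD, 88.5% and 89.9% in PCF11_KD and 91.9% and 94.8% in control.

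For totals the same held in 14 of the 525 tested entries. The number on opposite sides of control among all totals, passed or not, was not counted. The 4 PCF11 libraries alone fell into non-overlapping pairs in 343 entries (65.3%), so the 14 are described only. The log2 difference, PCF11_NIG_KD over PCF11_KD, was 0.77 for Dnz1, 0.69 for cnn-PI and 0.68 for fra, which were higher in PCF11_NIG_KD. It was -2.30 for bin3, -1.46 for Fs(2)Ket, -1.25 for CG30389, -1.22 for Usp7, -0.95 for CG16711, -0.94 for Mkp3, -0.90 for ewg, -0.80 for TH1, -0.63 for Imp, -0.58 for mahe and -0.57 for CG4562, which were lower. The other entry of the cnn gene, cnn-PD, passed as lower in total in PCF11_NIG_KD, opposite to cnn-PI. The call of cnn-PD needed all 4 PCF11 libraries. Without any of the 4 PCF11 libraries in turn, calls were lost for Mkp3 (adjusted p = 0.142 to 0.235), ewg (0.0686 to 0.252), TH1 (0.164 to 0.252), mahe (0.0626 to 0.326) and CG4562 (0.0632 to 0.134). With DESeq2 the adjusted p was 0.122 for Mkp3, 0.0664 for TH1 and 0.0663 for mahe, and with RLE size factors in edgeR it was 0.0544 for Mkp3, 0.0537 for TH1 and 0.0544 for mahe. TH1 was also lost without TMM (0.0631). The call of fra was lost without PCF11_KD replicate 1 (0.0673) or replicate 2 (0.0552), that of CG16711 without PCF11_NIG_KD replicate 1 (0.0707) or PCF11_KD replicate 2 (0.0527), and that of Imp without PCF11_NIG_KD replicate 2 (0.168) or PCF11_KD replicate 2 (0.131).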

How the results depend on the processing

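No call of usage, totals or sites reversed its direction under an alternative. The number of entries that differed in usage was 119 (101 more proximal and 18 more distal in PCF11_NIG_KD). It was 201 (163 and 38) with only the 4 PCF11 libraries in the fit and 172 (143 and 29) with the controls added, and between 73 and 86 (63 to 72 and 10 to 14) with a library left out. Totals passed in 64 entries (15 higher and 49 lower), in 171 (87 and 84) with only the 4 PCF11 libraries, in 160 (78 and 82) with the controls added, in 58 (23 and 35) with DESeq2, in 55 (22 and 33) with RLE size factors, and in 24 to 33 (7 to 12 and 17 to 23) with a library left out. Sites passed in 185 (92 and 93), in 373 (181 and 192) with only the 4 PCF11 libraries, in 362 (184 and 178) with the controls added, in 182 (64 and 118) without TMM, in 165 (62 and 103) with a mean of at least 30 counts, and in 91 to 112 (27 to 46 and 60 to 70) with a library left out. Fewer samples remain in the fits with a library left out. For the other changes the cause was not tested. With the replicate block 108 entries differed in usage (93 and 15), 48 in totals (12 and 36) and 169 sites (81 and 88). The labels do not say what the replicate numbers stand for. The deviations of same-numbered libraries correlated at 0.069 for usage and -0.030 for totals across 525 entries. These values cannot show whether same-numbered libraries shared a preparation. Of the entries followed one by one, 36 kept their usage call and 16 their call in totals without each library, and 35 and 32 lost it without some library. The PCF11_NIG_KD libraries had a median of 443 and 392 counts per entry, PCF11_KD 321 and 252, and control 202 and 176, and how far depth sets the calls was not tested.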
